A study of Homo sapiens with 6 samples.

Results

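The genes of antigen presentation by MHC class I were examined in C4-2 cells, a castration-resistant human prostate cancer cell line derived from LNCaP, treated with supraphysiological androgen levels (SAL). The members were 9 listed gene symbols of the 55765 in the count tables, all of which were present: the heavy chains HLA-B, HLA-C and HLA-E, the light chain B2M, the peptide transporter subunits TAP1 and TAP2, the loading factor TAPBP and the inducible proteasome subunits PSMB8 and PSMB9. RNA-seq counts came from 6 libraries, 3 of cells given the solvent DMSO and 3 of cells given 1 nM R1881 (methyltrienolone, a stable synthetic androgen) for 72 h. Per the labels, all of them were grown in DMEM with serum, so that the DMSO cells were a solvent control and were not described as hormone-deprived. Libraries carry the numbers 1 to 3 in each group, and the experiment was performed 3 times independently, as the study describes it. It was asked how each member differed between SAL and DMSO. C4-2 is a single line grown without immune cells, and in such bulk RNA a smaller number of expressing cells cannot be told apart from less RNA per cell.

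MHC class I molecules display peptides from inside the cell to cytotoxic T cells. Proteasomes cut the peptides, the TAP1-TAP2 transporter moves them into the endoplasmic reticulum, and tapasin (TAPBP), with the chaperone calreticulin and the oxidoreductase PDIA3, holds an empty heavy chain and its light chain B2M at the transporter until a peptide binds. Interferons raise most of these genes, through response elements in their promoters and through the transactivator NLRC5, and low class I levels are a known feature of prostate cancer.

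After removal of rRNA genes, each library held between 6931042 and 9776990 counts. Of all mapped reads tallied, from 24.0% (SAL replicate 2) to 48.3% (DMSO replicate 3) lay outside annotated exons, introns included. Same-numbered libraries deviated together from their group means, with correlations of 0.89, 0.86 and 0.74 over 16835 genes for replicates 1, 2 and 3. The replicate number was therefore kept as a block in edgeR's quasi-likelihood test, as in the paired design of the study, and values of 3 libraries are given below in the order of their numbers. A gene with a Benjamini-Hochberg adjusted p under 0.05 over all genes tested was called. Among the defining markers of prostate luminal cells, KLK3 had 800 ± 347 CPM in DMSO (counts per 1000000 of the TMM-scaled library size, mean ± SD, n = 3). All 8 luminal markers passed the filter on low counts, whereas the 8 immune markers summed to between 2 and 4 counts per library and PTPRC, CD3E, CD3D and ITGAM were at 0 throughout.

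The promoters are shown first because interferon and transactivator elements are known in class I promoters, and the windows differ in which of these letters they hold. RefSeq windows in GRCh38.p14 were found for 8 of the 9 members, and the window of HLA-E was not analysed here. The following are the 250 bases before the annotated start of 6 members, 5′ to 3′ on the strand of the gene, with every motif match in capitals. Motifs were searched on both strands, with N for any base: the core of the interferon-stimulated response element, GAAA and GAAA with NN between them; its looser form GAANNGAAA, chosen after the sequences had been seen, which can overlap the core; TGACG, the core of a cyclic AMP response element, found in the X2 box; CCAAT, the core of the Y box; and the kappa B forms GGGANTTCC and GGGGA and CCC with NN between them.
HLA-B (chr6:31357180-31357429, minus strand): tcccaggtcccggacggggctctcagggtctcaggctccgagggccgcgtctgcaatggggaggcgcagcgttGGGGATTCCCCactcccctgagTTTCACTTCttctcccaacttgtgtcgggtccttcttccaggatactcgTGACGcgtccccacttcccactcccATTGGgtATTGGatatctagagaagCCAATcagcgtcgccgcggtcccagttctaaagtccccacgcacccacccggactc
HLA-C (chr6:31272093-31272342, minus strand): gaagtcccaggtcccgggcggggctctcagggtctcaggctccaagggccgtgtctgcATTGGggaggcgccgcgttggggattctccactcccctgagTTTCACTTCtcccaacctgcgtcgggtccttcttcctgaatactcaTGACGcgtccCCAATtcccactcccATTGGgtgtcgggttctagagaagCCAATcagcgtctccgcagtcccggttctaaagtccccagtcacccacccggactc
B2M (chr15:44711267-44711516, plus strand): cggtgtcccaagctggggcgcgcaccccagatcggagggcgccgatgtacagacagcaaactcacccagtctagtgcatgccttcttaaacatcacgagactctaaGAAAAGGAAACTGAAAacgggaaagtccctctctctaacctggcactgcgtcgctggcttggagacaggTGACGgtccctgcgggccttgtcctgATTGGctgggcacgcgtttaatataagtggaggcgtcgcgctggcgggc
TAP1 (chr6:32853705-32853954, minus strand): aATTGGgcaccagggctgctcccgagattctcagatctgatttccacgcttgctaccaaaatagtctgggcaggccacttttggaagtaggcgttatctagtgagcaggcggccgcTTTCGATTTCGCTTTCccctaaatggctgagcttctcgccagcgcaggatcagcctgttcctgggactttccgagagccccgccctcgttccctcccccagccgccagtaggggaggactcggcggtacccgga
TAP2 (chr6:32838740-32838989, minus strand): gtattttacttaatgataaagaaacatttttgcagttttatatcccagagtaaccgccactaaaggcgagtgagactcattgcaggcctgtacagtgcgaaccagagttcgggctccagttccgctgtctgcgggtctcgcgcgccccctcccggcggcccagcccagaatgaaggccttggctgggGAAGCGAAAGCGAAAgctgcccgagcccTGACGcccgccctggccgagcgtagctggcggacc
TAPBP (chr6:33314079-33314328, minus strand): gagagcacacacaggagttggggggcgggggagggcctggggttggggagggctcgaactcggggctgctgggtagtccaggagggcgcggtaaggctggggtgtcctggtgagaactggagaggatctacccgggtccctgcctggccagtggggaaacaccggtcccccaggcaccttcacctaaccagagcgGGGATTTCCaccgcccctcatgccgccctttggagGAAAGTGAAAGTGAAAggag

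The interferon response core was found in the windows of B2M, TAP1, TAP2 and TAPBP, and in 3.02% of the 35116 windows of the table. In B2M, TAP1 and TAPBP it occurred as a pair of overlapping matches, which in B2M lay from 144 to 129 bases before the start. The windows of TAP1 and PSMB9, on opposite strands, meet between the starts of these genes. The core of TAP1 is therefore also upstream of PSMB9, outside the window of PSMB9. HLA-B and HLA-C held only the looser form, present in 6.56% of all windows, at 155 to 147 and at 151 to 143 bases. TGACG was found in HLA-B, HLA-C, B2M, TAP2, PSMB8 and PSMB9 and in 21.2% of all windows, and CCAAT in HLA-B, HLA-C, B2M, TAP1 and PSMB9 and in 32% of all windows. Both heavy chains and B2M thus carried TGACG followed by CCAAT letters closer to the start, as the printed sequences show. For kappa B, HLA-B held the form that begins with GGGGA (2.55% of windows), as matches on both strands that overlap, and TAPBP held GGGANTTCC (1.59%). Other kappa B spellings were not searched. GGGACTTTCC, which neither form matches, can be read in the printed window of TAP1 and, on the opposite strand, of B2M. The full androgen response element, AGAACA and TGTTCT with NNN between them, was in none of the member windows and in 0.00285% of all windows, and AGAACA alone was in PSMB8 and in 12.4% of all windows. Further windows of TAP1 and PSMB8, before other annotated starts, held no match of any motif and are not printed. A match of letters is a description and not a site.

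In C4-2 cells under SAL, B2M, HLA-B, HLA-C and TAPBP rose, TAP2 fell, HLA-E and TAP1 did not pass the test, and PSMB8 and PSMB9 did not pass the filter on low counts. Of the 7 members tested, 4 were called higher, against 11.5% of all genes tested, and 1 was called lower, against 9.37%. The median log2 fold change of the 7 was 0.49, and that of all genes was -0.0011. With DESeq2 and the block, 4 members were again called higher, beside 8.29% of all genes, and 1 lower, beside 5.23%. Without the block no member was called in edgeR, beside 0.107% of all genes higher and 0.0178% lower, and 1 of the 7 had an unadjusted p under 0.05. Without replicate 3, B2M was the only member called, beside 4.41% of all genes higher and 2.84% lower. Without replicate 1, 5 members were higher (14.6% of all genes) and 1 lower (11.7%), and without replicate 2, 3 were higher (9.1%) and 1 lower (7.92%). The counts of members were 4 and 1 under 4 further settings: DESeq2 size factors (11.1% and 9.47% of all genes), no filter (6.68% and 4.84%), rRNA genes kept (11.4% and 9.33%) and mitochondrial genes removed (11.5% and 9.42%). They were also 4 and 1 among genes with at least 10 counts in every library (12.3% and 10.1%). No tested member was lower in every SAL library than in every DMSO library, as 3.73% of all genes were.

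**Figure D1:**
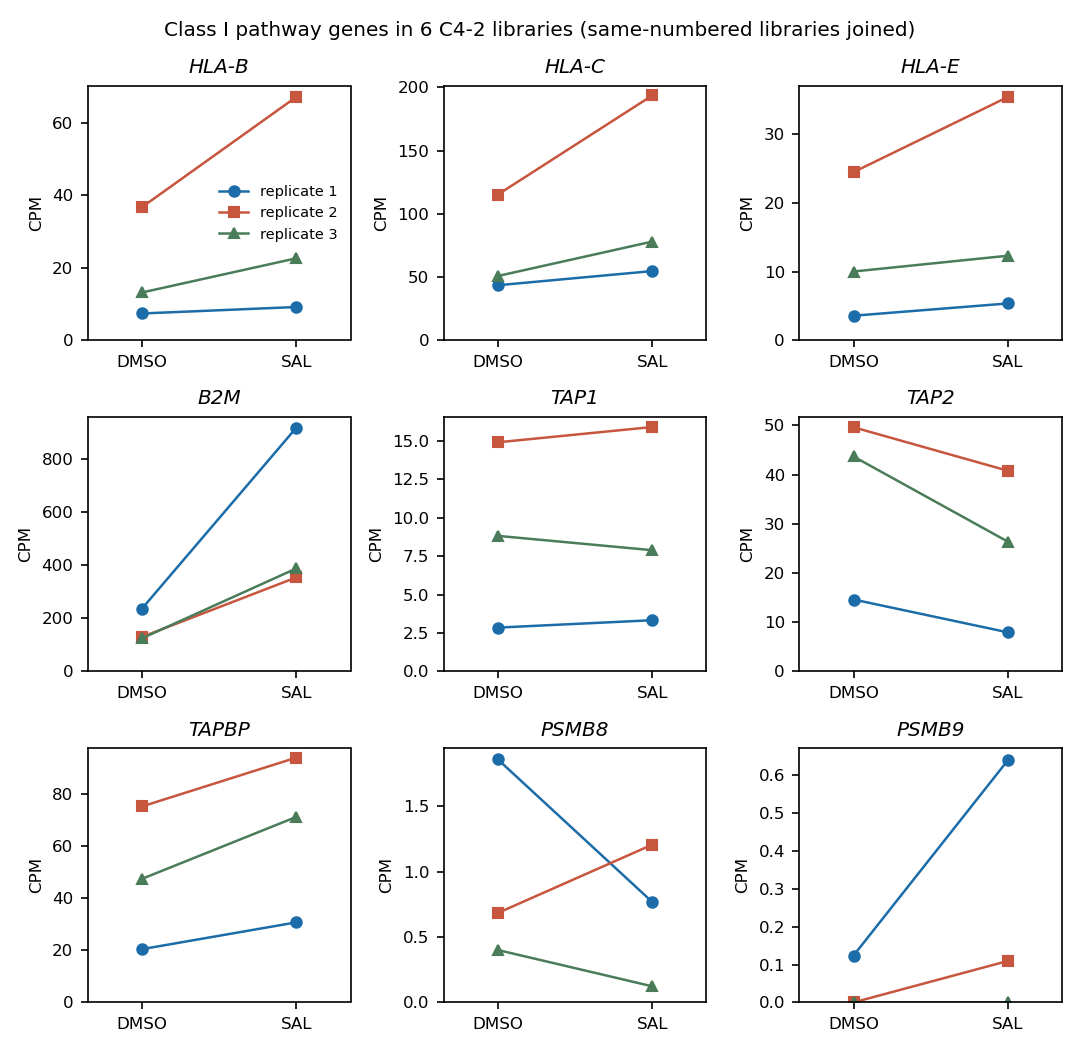
CPM (linear axes from 0) of the 9 class I genes in each of the 6 libraries, with the DMSO and SAL libraries of a replicate number joined by a line (blue circles 1, red squares 2, green triangles 3). B2M rose steeply in all 3 pairs, the lines of HLA-B, HLA-C, HLA-E and TAPBP point up, those of TAP2 point down, and PSMB8 and PSMB9 stay under 2 CPM.

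B2M encodes beta-2 microglobulin, the light chain with which class I heavy chains generally reach the cell surface. It lies on chromosome 15 (45003556 to 45011049 on the plus strand in GRCh37), apart from the other members, which are all on chromosome 6. B2M had 237, 130 and 125 CPM with DMSO and 919, 354 and 388 CPM with SAL. Every SAL library was above every DMSO library, a pattern that 3.78% of the genes tested had. A two-sided exact permutation test that ignores the pairing gave p = 0.1, below which 3 libraries against 3 cannot go. That value follows from the separation of the groups and adds nothing to it. The log2 fold change (log2 FC) was 1.68 (SE, its standard error, 0.11, adjusted p = 2.78e-08, edgeR), or 3.21-fold, with 1.96, 1.44 and 1.63 in the 3 pairs. The change of the androgen-induced gene KLK3 in the same fit was 1.21. By the size of its rise B2M ranked 217 among the 16835 genes tested, and by its mean CPM it ranked 339. B2M was called in edgeR without each replicate number in turn, with log2 FCs between 1.54 and 1.78. The library of replicate 1 was the highest in both groups.

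HLA-B and HLA-C encode classical heavy chains, which bind the peptides seen by T cells. HLA-B (chromosome 6, 31321649 to 31334844, minus strand, GRCh37) had 7.43, 36.8 and 13.2 CPM with DMSO. In the SAL replicates it had 9.22, 67.2 and 22.7 CPM. The groups overlapped widely, since replicate 2 was far above the others in both, but each SAL library was above its own DMSO library. The log2 FC of HLA-B was 0.71 (SE 0.14, adjusted p = 0.00225, edgeR), with 0.30, 0.87 and 0.77 in the pairs. Leaving out replicate 2 or replicate 3 ended the call of HLA-B, at an adjusted p of 0.0773 and 0.0703.

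HLA-C (chromosome 6, 31236526 to 31239907, minus strand, GRCh37), also a ligand of inhibitory receptors of natural killer cells, had 43.6, 115 and 50.9 CPM with DMSO. It had 54.8, 194 and 78.1 CPM with SAL. Again replicate 2 was highest and replicate 1 lowest in both groups, and all 3 pairs rose, by 0.33, 0.75 and 0.62. The log2 FC of HLA-C was 0.58 (SE 0.10, adjusted p = 0.000995, edgeR), and without replicate 3 its adjusted p was 0.0724.

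HLA-E is a non-classical heavy chain that displays signal peptides of other class I chains to receptors of natural killer cells. HLA-E (chromosome 6, 30457286 to 30461971, plus strand, GRCh37) had 3.59, 24.5 and 10.02 CPM with DMSO and 5.38, 35.4 and 12.3 CPM with SAL. The 3 pairs had differences of 0.55, 0.53 and 0.29, and the log2 FC of 0.46 (SE 0.16) did not pass the test (adjusted p = 0.0587, edgeR). Without replicate 1, in which HLA-E had 29 and 42 counts, it passed (adjusted p = 0.0437) at a log2 FC of 0.44, and with DESeq2 and the block its adjusted p was 0.249.

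Of the transporter subunits, TAP2 fell and TAP1 did not pass the test. TAP1 and TAP2 form the heterodimer that pumps peptides into the endoplasmic reticulum. TAP2 (chromosome 6, 32789610 to 32806516, minus strand, GRCh37) had 14.6, 49.6 and 43.7 CPM with DMSO and 7.94, 40.8 and 26.4 CPM with SAL. All 3 pairs fell, although the groups overlapped. TAP2 had a log2 FC of -0.59 (SE 0.14, adjusted p = 0.00640, edgeR), or 66.6% of the DMSO level, with -0.86, -0.28 and -0.72 in the pairs. Without replicate 3 its adjusted p was 0.160 at a log2 FC of -0.52.

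TAP1 (chromosome 6, 32812986 to 32821593, minus strand, GRCh37) had 2.85, 14.9 and 8.82 CPM with DMSO and 3.33, 15.9 and 7.89 CPM with SAL. Each pair was nearly level, with 0.21, 0.09 and -0.16. The log2 FC of 0.03 (SE 0.19, adjusted p = 0.940, edgeR) did not pass the test, and it turned to -0.01 without replicate 1 and to -0.04 without replicate 2. With 23 to 145 counts per library, the standard error of TAP1 was the largest among the members tested.

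TAPBP encodes tapasin, which bridges the transporter and the heavy chain during loading. TAPBP (chromosome 6, 33267471 to 33282061, minus strand, GRCh37) had 20.4, 75.2 and 47.4 CPM with DMSO and 30.7, 94.0 and 71.2 CPM with SAL. The order of the replicates was the same in both groups and each pair rose, by 0.58, 0.32 and 0.58. The log2 FC of TAPBP was 0.49 (SE 0.11, adjusted p = 0.00371, edgeR), and without replicate 3 its adjusted p was 0.148.

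**Figure D2:**
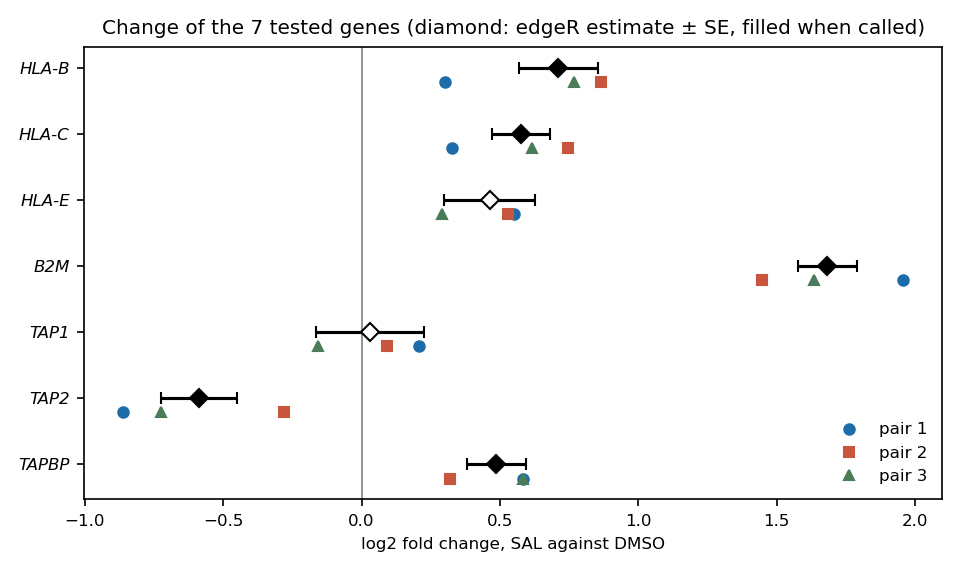
Log2 fold change of SAL against DMSO for the 7 members tested: diamonds with bars are edgeR estimates ± standard error with the replicate block, filled when the adjusted p was under 0.05, and the coloured points are the differences of log2 CPM in pairs 1 to 3. B2M stands apart at 1.68, TAP2 is at -0.59 with all 3 pairs below 0, and HLA-E at 0.46 and TAP1 at 0.03 are open diamonds.

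PSMB8 and PSMB9 encode the inducible catalytic subunits LMP7 and LMP2, which take the places of PSMB5 and PSMB6 in the immunoproteasome. They are next to TAP1 and TAP2 on chromosome 6 (32808494 to 32812456 and 32811913 to 32827628 in GRCh37). PSMB8 had 15, 5 and 3 counts with DMSO and 6, 11 and 1 counts with SAL. PSMB9 had 1, 0 and 0 counts in DMSO and 5, 1 and 0 in SAL. In the edgeR fit without the filter, neither passed the test (adjusted p = 0.822 for PSMB8 and 0.744 for PSMB9), and a change of either was not detectable at this depth. Part of the exons of both genes overlaps other genes (17.3% of the exon bases of PSMB8 and 5.21% of those of PSMB9 in the GENCODE v44 annotation), and reads that fell on more than 1 gene were not counted.

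Set against its standard partner, PSMB8 made up from 0.209% (SAL replicate 3, 95% exact binomial interval 0.00529% to 1.16%) to 1.79% (DMSO replicate 1, interval 1.01% to 2.94%) of the counts of PSMB8 and PSMB5 together. PSMB9 made up at most 1.18% of the counts of PSMB9 and PSMB6 (SAL replicate 1, interval 0.385% to 2.74%), and 3 libraries had no PSMB9 count. By the rule that a count of 0 allows up to 3 counts, the share could reach 1.37% in DMSO replicate 2 (0 of 219), 1.61% in DMSO replicate 3 (0 of 186) and 1.07% in SAL replicate 3 (0 of 281). The upper ends of the exact 95% intervals were 1.67%, 1.96% and 1.30%. These intervals and limits cover counting error only. The remaining inducible subunit, PSMB10, which replaces PSMB7, was higher in share, from 5.52% in SAL replicate 1 to 7.69% in DMSO replicate 3. PSMB10 had 4.196 ± 0.278 CPM in DMSO and 4.02 ± 0.99 CPM in SAL (SD, n = 3), and its log2 FC of -0.07 (SE 0.26, adjusted p = 0.882, edgeR) did not pass the test. The log2 ratio of PSMB10 to PSMB7 differed between SAL and DMSO by -0.23, 0.19 and -0.0015 in the 3 pairs. PSMB5, PSMB6 and PSMB7 had log2 FCs of 0.10, 0.41 and -0.06 (adjusted p = 0.530, 0.0566 and 0.722, edgeR), and PSMB6 passed the test without replicate 1 (adjusted p = 4.26e-05) and without the filter (adjusted p = 0.00490).

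Within a library, scaling between libraries largely cancels, so ratios of members were also compared. B2M exceeded HLA-C by a log2 ratio of CPM of 2.43, 0.17 and 1.29 with DMSO, and by 4.06, 0.87 and 2.31 with SAL. The ratio was higher in SAL in every pair, by 1.63, 0.70 and 1.02, with p = 0.25 in a two-sided exact sign-flip permutation test, below which 3 pairs cannot go. HLA-B against HLA-C differed by -0.03, 0.12 and 0.15 in the pairs. TAP2 against TAP1 differed by -1.07, -0.37 and -0.57 in the pairs, lower in SAL each time. TAPBP against TAP2 was higher by 1.44, 0.60 and 1.31, and B2M against HLA-B by 1.65, 0.58 and 0.87. These 5 ratios were chosen after the values of their genes had been seen.

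**Figure D3:**
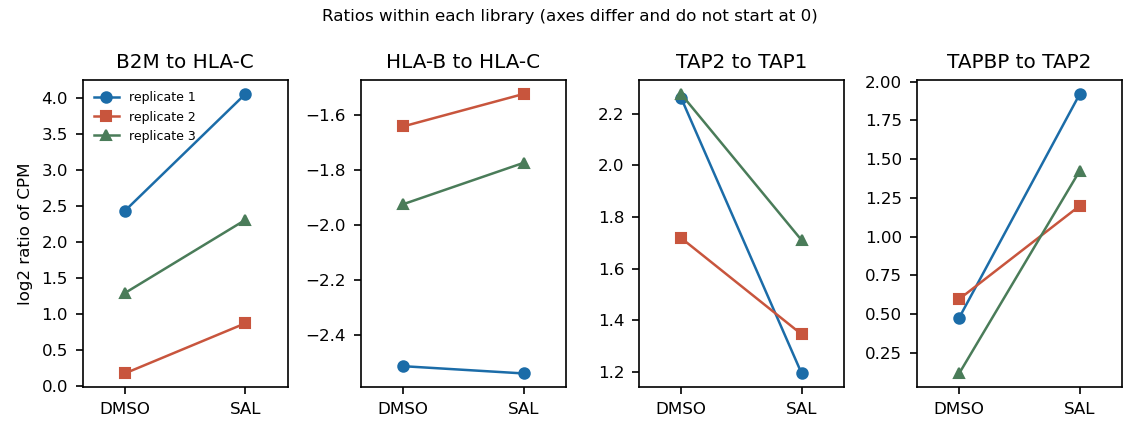
Log2 ratio of CPM of 2 genes within each library, DMSO and SAL libraries of a replicate number joined (blue circles 1, red squares 2, green triangles 3), with axes that differ between panels. B2M to HLA-C and TAPBP to TAP2 are higher in SAL in all 3 pairs, TAP2 to TAP1 is lower in all 3, and HLA-B to HLA-C moves by at most 0.15.

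Levels of different genes were compared per kilobase of merged exons. B2M was the highest member in DMSO at 52.5 ± 20.2 CPM per kilobase (SD, n = 3) and in SAL at 178 ± 101. HLA-C followed with 27.9 ± 15.7 in DMSO and 43.4 ± 29.7 in SAL, and by this length TAPBP came next with 7.17 ± 4.12 and 9.82 ± 4.82 CPM per kilobase. HLA-E (4.35 ± 3.66), HLA-B (4.14 ± 3.36) and TAP2 (3.47 ± 1.81) in DMSO differed from each other by less than their SD. TAP1 was at 1.87 ± 1.27, PSMB8 at 0.28 ± 0.22 and PSMB9 at 0.012 ± 0.021 CPM per kilobase in DMSO, while the standard subunits PSMB5, PSMB6 and PSMB7 were at 51.8 ± 16.3, 25.04 ± 10.7 and 32.0 ± 5.24. With the length of the canonical transcript in place of the merged exons (an alternative chosen after the data had been seen), HLA-B moved to 12.5 ± 10.1 and HLA-E was at 4.98 ± 4.198 in DMSO, so the order of these neighbours depends on the length used. In SAL, HLA-B (21.5 ± 19.8) then stood above TAPBP (18.9 ± 9.28). B2M moved to 174 ± 67.0 in DMSO and 587 ± 336 in SAL, and PSMB5, which was level with B2M in DMSO by merged exons, was at 76.8 ± 24.1 in DMSO by the canonical length. The reference gene of HLA-B is long in this annotation, and 45.3% of its exon bases overlap other genes. That share was 21% for TAPBP, 19.5% for TAP2 and 14.2% for TAP1, and 0% for HLA-C, HLA-E and B2M.

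The spread between replicate numbers was larger than the change with SAL for most members. Within DMSO, the highest library exceeded the lowest 6.81-fold for HLA-E, 5.23-fold for TAP1, 4.95-fold for HLA-B, 3.68-fold for TAPBP, 3.40-fold for TAP2 and 2.64-fold for HLA-C. Replicate 1 was the lowest and replicate 2 the highest for these 6 genes, in DMSO and in SAL. B2M went the other way, with replicate 1 the highest in both groups, 1.90-fold above the lowest in DMSO and 2.59-fold in SAL. The canonical transcript of B2M has a GC content of 39.1%, and those of the other 6 members tested have 48.9% (TAP2) to 60.1% (HLA-C). The share of counts on rRNA genes was highest in replicate 1, at 27.7% in DMSO and 27.8% in SAL, and 11.9% to 21.99% in the other libraries. The part of these properties in the spread was not tested. Heavy chain genes resemble one another and vary between people, and reads that fit several places were left out of the counts, so levels of single heavy chains are uncertain.

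Among 15 partners of antigen processing, 3 rose and none fell in edgeR, beside 11.5% and 9.37% of all genes tested. In DESeq2, 3 were called higher and 0 lower, beside 8.29% and 5.23%, and without replicate 1 in edgeR 1 was called lower. The oxidoreductase PDIA3 rose from 215 ± 29.7 to 313 ± 61.5 CPM (SD, n = 3), a log2 FC of 0.53 (adjusted p = 0.000932). Calreticulin, the chaperone CALR, had a log2 FC of 0.36 (adjusted p = 0.0125), and BCAP31, an export factor of the endoplasmic reticulum, one of 0.38 (adjusted p = 0.0125). PDIA3, CALR and BCAP31 were not past the threshold without replicate 3, nor was BCAP31 without replicate 2. The trimming peptidases ERAP1 and ERAP2 and the PA28 activator genes PSME1 and PSME2 did not pass the test. The median log2 FC of the 15 was 0.13.

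Of 31 standard proteasome subunits, 3 were called higher in edgeR, a share near the 11.5% of all genes. None was called lower in edgeR or in DESeq2, beside 9.37% and 5.23% of all genes. The median log2 FC was 0.10. The genes called were PSMA3 and PSMA6 of the core particle, with log2 FCs of 0.43 and 0.46 (adjusted p = 0.00355 and 0.00827), and PSMD8 of the regulatory particle, with 0.59 (adjusted p = 0.00467). None of the 3 was past the threshold without replicate 3, nor was PSMD8 without replicate 2.

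Of the transactivators and interferon signalling genes, 24 of 28 were tested, with 2 called higher and 1 lower in edgeR. Both shares were near or under those of all genes tested, 11.5% and 9.37%. DESeq2 with the block called 0 higher and 0 lower, beside 8.29% and 5.23% of all genes. The gene called lower in edgeR was NLRC5, the transactivator of class I promoters. NLRC5 had 13, 26 and 24 counts with DMSO and 3, 21 and 8 with SAL. Its log2 FC was -1.23 (SE 0.39, adjusted p = 0.0365, edgeR), and all 3 pairs were lower. In DESeq2 the adjusted p of NLRC5 was 0.183. Leaving out replicate 1 or replicate 3 also ended the call, at an adjusted p of 0.0507 and 0.294, and a filter of at least 10 counts in every library left NLRC5 untested. IRF1, an interferon-induced activator, had 27, 14 and 30 counts in DMSO and 10, 22 and 7 in SAL, and its log2 FC of -1.001 did not pass the test (adjusted p = 0.124), although it did without replicate 2 (adjusted p = 0.0116).

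JAK1, the kinase that both interferon receptors use, had 41 to 104 counts per library and a log2 FC of 0.23 (SE 0.19, adjusted p = 0.449). STAT2 and IRF3 rose, with log2 FCs of 0.51 and 0.52 (adjusted p = 0.0203 and 0.0365). Neither was called with DESeq2 and the block (adjusted p = 0.0994 and 0.192) or without replicate 3, nor was IRF3 without replicate 2.

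Among 41 interferon-stimulated genes outside the members, 25 were tested, 2 rose, 3 fell and 20 did not pass the test, with a median log2 FC of 0.09. The shares of all genes tested were 11.5% higher and 9.37% lower. The guanylate-binding protein GBP2 rose from 15, 5 and 11 counts with DMSO to 79, 24 and 39 in SAL, a log2 FC of 2.08 (SE 0.31, adjusted p = 0.000170, edgeR). The nuclease gene ISG20 had a log2 FC of 1.00 (adjusted p = 0.000138). OAS3, IFIH1 and IFIT1, sensors and effectors of antiviral defence, fell, with log2 FCs of -0.77, -0.62 and -1.18 (adjusted p = 0.000833, 0.00106 and 0.0470). OAS3, IFIH1 and IFIT1 were not past the threshold without replicate 3, nor was IFIT1 without replicate 1 or with DESeq2, while GBP2 and ISG20 were called without each replicate number in turn. Without the filter, all 41 genes of this list were tested and 5 were called higher, beside 6.68% of all genes.

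In the class II pathway, which presents peptides from outside the cell, 5 of 13 genes were at 0 in every library, HLA-DRA and HLA-DRB1 among them. HLA-DMA, a chain of the class II peptide editor, was the only one tested. It had 50, 45 and 19 counts with DMSO and 104, 107 and 40 with SAL. HLA-DMA rose in all 3 pairs, with a log2 FC of 1.00 (SE 0.20, adjusted p = 0.00233, edgeR), and its partner HLA-DMB had at most 16 counts.

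Of 16 class I-like and NKG2D ligand genes, 10 were tested, with 1 called higher and 1 lower in edgeR. Both shares were near those of all genes tested, 11.5% and 9.37%. AZGP1, a secreted protein with a class I fold that needs no B2M, rose from 56.4 ± 21.7 to 207 ± 98.4 CPM (SD, n = 3), a log2 FC of 1.84 (SE 0.10, adjusted p = 4.27e-09, edgeR) with 1.73, 1.98 and 1.79 in the pairs. ULBP1, a stress ligand of natural killer cells, fell by 0.60 on the log2 scale (adjusted p = 0.0450). ULBP1 was not called in DESeq2 (adjusted p = 0.166), in edgeR when replicate 3 was left out (adjusted p = 0.554) or among genes with at least 10 counts in every library (adjusted p = 0.0504). The other 8 did not pass the test.

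**Figure D4:**
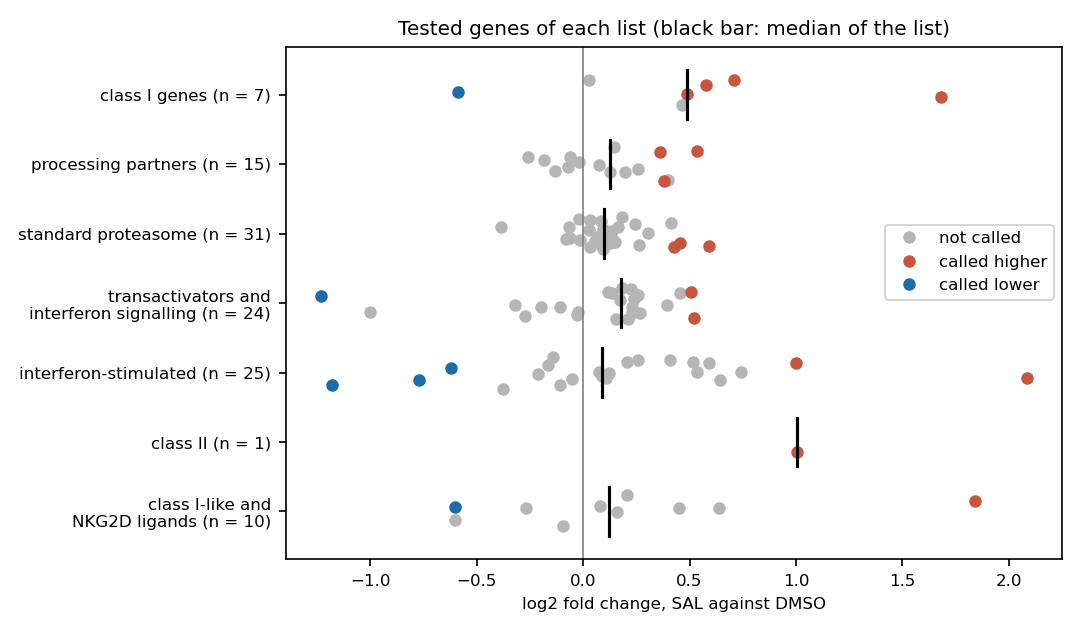
Log2 fold change of SAL against DMSO for each tested gene of the 7 lists (points, grey not called, red called higher, blue called lower, spread at random in height), with the median of each list as a black bar. The class I genes have a median of 0.49 and the other lists with more than 1 tested gene lie between 0.09 and 0.18.

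Of 27 tested genes within 100 kb of the chromosome 6 members, 5 were called higher and 2 lower, beside 11.5% and 9.37% of all genes tested, and their median log2 FC was 0.07. The nearest to TAPBP, ZBTB22 at 0.122 kb, had a log2 FC of 0.07 and did not pass the test (adjusted p = 0.837, edgeR). RGL2, at 0.752 kb from TAPBP, had a log2 FC of 0.45 (adjusted p = 0.0176), and B3GALT4, at 14.9 kb, one of 1.60 (adjusted p = 0.000284). None of the 2 tested genes within 100 kb of B2M was called. These 3 neighbours of TAPBP were picked with their values in view.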

How the data were processed

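Total RNA of 6 C4-2 cultures was sequenced in pairs of reads. Per the methods and processing notes of the study, the authors used TopHat 2.1.0 to place trimmed first reads on hg19, and HTSeq 0.11.2 to tally them over gencode v19 genes without strand, so that reads of a gene and of an antisense partner look alike. The deposited unit is the raw count for each gene symbol.

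Of the 55765 symbols, those of rRNA (523) were left out, following the study. The filter filterByExpr then kept 16835 of the remaining symbols. After TMM scaling, the 2 groups were compared by quasi-likelihood in edgeR 4.0.16 (R 4.3.3) with a replicate block. Standard errors were obtained from the fold change and the F statistic. Log2 CPM used a prior count of 2. The numbers pair the libraries by the paired test of the study and by the correlations given above. Alternatives were DESeq2 1.42.0 with the block, its size factors, a fit that ignores the block, no filter, a minimum of 10 counts per library, rRNA retained, mitochondrial genes dropped and each replicate number left out. The fit was also run on data simulated from its own model, which cannot test how it handles the real spread between replicates. Positions and lengths were read from GENCODE v44 on GRCh37, the assembly behind hg19, an annotation newer than the annotation of the authors, and promoter sequences from RefSeq (GRCh38.p14).

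The members, lists and tests were chosen with earlier results of these data known. The text names all 9 members, KLK3, the 4 proteasome subunits of the ratios, NLRC5, IRF1 and JAK1, and per list up to 3 genes called in each direction with the smallest adjusted p. Other genes are named as examples of a list or as marked, and a result that the naming rule would give is not reported here. Markers of fibroblasts and endothelial cells summed to 19 to 89 and 4 to 36 counts per library. COL1A1 and VWF made up most of these counts. The endothelial marker PECAM1 was not analysed here. With 6 libraries, the precision of each test is limited.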

Additional observations from a re-analysis of the deposited data

How the results depend on the processing

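Without the replicate block, 18 genes were called higher and 3 lower, and 0 in the class I genes and in each other list, with 654 of all genes and 1 of the 7 class I genes at an unadjusted p under 0.05 in edgeR, although same-numbered libraries were paired. DESeq2 with the block called 853 genes lower (5.23% of all genes, beside 8.29% higher). It called 0 of 24 transactivators higher and 0 lower, and 0 of 10 class I-like genes lower. Without the filter, 5 of 31 standard proteasome and 5 of 41 interferon-stimulated genes were called higher, beside 6.68% of all genes. With at least 10 counts in every library, 1 of 19 interferon-stimulated genes was called higher, beside 12.3% of all genes. In that fit 0 of 22 transactivators and 0 of 8 class I-like genes were called lower, beside 10.1%. With 1 replicate number left out, from 750 to 2443 genes (4.41% to 14.6%) were called higher and from 483 to 1955 (2.84% to 11.7%) lower. The class I genes then had 1 to 5 called higher and 0 to 1 lower, the processing partners 0 to 4 higher and 0 to 1 lower, the standard proteasome 0 to 6 higher, the transactivators 0 to 3 higher and 0 to 2 lower, the interferon-stimulated genes 2 to 4 higher and 0 to 3 lower, and the class I-like genes 0 to 1 lower. The low ends mostly belong to the fit without replicate 3, and the cause was not tested. Each fit with 1 number left out rests on 4 libraries. TAP1, at -0.01 without replicate 1 and -0.038 without replicate 2, and PSMB10, at 0.075 without replicate 1, were the only genes followed singly whose direction turned, with ranges of -0.038 to 0.14 and -0.27 to 0.075 over the fits that left out 1 number. DESeq2 size factors in edgeR, rRNA genes kept and mitochondrial genes removed changed no call of the 32 single genes followed over the alternatives. Of 316 values of these genes over all alternatives, 257 kept their direction and their side of the threshold, 52 lost and 4 gained the call and 3 turned direction. With 1 pair left out, the mean difference of the log2 ratio ranged from -0.37 to 0.49 for PSMB9 to PSMB6, from -0.12 to 0.092 for PSMB10 to PSMB7 and from -1.05 to -0.18 for PSMB8 to PSMB5. The ratio of B2M to HLA-C ranged from 0.86 to 1.32, B2M to HLA-B from 0.72 to 1.26, TAPBP to TAP2 from 0.95 to 1.38, TAP2 to TAP1 from -0.82 to -0.47 and HLA-B to HLA-C from 0.046 to 0.13. Genes with under about 30 counts, such as NLRC5, PSMB8 and PSMB9, are limited by depth.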

Other observations

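GBP1, a paralog of GBP2 and a known target of interferon gamma, was too low for the filter of the test but had 0, 0 and 1 counts with DMSO and 16, 4 and 13 counts with SAL. It was named after its values had been seen. In the edgeR fit without the filter it was called higher (adjusted p = 9.05e-05), and no fold is given because DMSO held 1 count in all. XAF1, CXCL10 and CXCL11, other interferon targets, had at most 2 counts in any library.

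The prostate luminal keratin genes KRT8 and KRT18, listed among the cell type markers, changed by 2.45 and 1.71 on the log2 scale (adjusted p = 1.61e-10 and 9.56e-05, edgeR with the replicate block), and HOXB13 had -0.07 (adjusted p = 0.684).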
